A study of Mus musculus with 473 samples.

Results

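The voltage-gated calcium channel, voltage-gated sodium channel and Hcn channel genes described here are the 44 protein-coding genes, of 21463 protein-coding features measured, whose symbols begin with Cacna, Cacnb, Cacng, Scn and a number, or Hcn. They were chosen by symbol, with no measured value. RNA had been read in single cells of Th:EGFP transgenic mice, in which a bacterial artificial chromosome carries eGFP under the regulatory sequences of tyrosine hydroxylase, the rate-limiting enzyme of dopamine synthesis. All animals carried the transgene on a Swiss Webster background, and all cells were sorted for eGFP and for exclusion of propidium iodide. The 5 groups compared, each from 1 pool of animals, were midbrain (MB), forebrain (FB) and olfactory bulb (OB) of 7-day-old pups (P7), and MB and FB of embryos at day 15.5 (E15.5). The labels describe the E15.5 FB as hypothalamus. Tissue of 5 pups or 4 embryos was pooled for each region, and P7 tissue had a longer dissociation and, unlike E15.5 tissue, a density gradient step. The values below are means ± SD over 30 cells of P7 MB, 31 of P7 FB, 16 of P7 OB, 88 of E15.5 MB and 84 of E15.5 FB. Cells of 1 pool are not replicates of a condition, so no difference between groups could be checked against animals, and no p-value is given.

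Voltage-gated calcium channels are built around a pore-forming alpha1 subunit, encoded by a Cacna1 gene, which opens when the membrane is depolarised. An alpha2delta subunit (Cacna2d genes) and a beta subunit (Cacnb genes) carry most of these pores to the membrane and tune their gating, while most Cacng genes encode TARPs, auxiliary subunits of AMPA-type glutamate receptors. Scn genes encode the pores and beta subunits of the channels that fire the action potential, and Hcn genes encode cation channels that open on hyperpolarisation and help to set the pacemaking of many neurons. Adult dopamine neurons of the midbrain fire on their own, and Cacna1d, the pore of the Cav1.3 L-type channel, is known for its part in that pacemaking.

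The deposited values are FPKM, a level per transcript length. A gene is called found in a cell at an FPKM of 1 or more, and shares of cells carry exact 95% intervals where given, which cover counting error only. The depth per cell is unknown. The summed FPKM over protein-coding features had a median of 416740 per cell in P7 MB, 446119 in P7 FB, 466563 in P7 OB, 877712 in E15.5 MB and 954687 in E15.5 FB, so values were also rescaled to the same sum in each cell. The number of genes per cell in the labels had a median of 3310.0 in P7 OB, below the 5164 to 6227.5 of the other groups. The cells come from the 3 library plates (1 P7, 2 E15.5) on which the labelled number of genes matched the columns. On the other 2 P7 plates the labels matched only after the columns of both plates were exchanged well by well (correlations of 0.999 after, and -0.0338 and -0.0519 before), and values from these 147 cells, called the exchanged plates, are given beside the main ones. The plates differ in summed FPKM, so differences between regions are read within a plate. Markers of dopaminergic cells summed to at least 1 FPKM in 29 of 30 P7 MB cells, in all P7 FB and P7 OB cells, in 56 of 88 E15.5 MB cells and in 48 of 84 E15.5 FB cells. The summed level of a 4-gene oligodendrocyte list had medians of 9.66 in P7 MB, 13.4 in P7 FB, 0.436 in P7 OB, 14.3 in E15.5 MB and 5.60 in E15.5 FB, and the part of such RNA in the results was not tested. The median summed level of each other non-neuronal list was at or near 0 in every group.

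Of the 44 genes, 38 averaged at least 1 FPKM in at least 1 group and 6 did not (Cacna1f, Cacna2d4, Scn10a, Scn4a, Scn7a and Scn4b). The skeletal muscle sodium channel gene Scn4a was found in no analysed cell. A cell held a median of 19 of the 44 genes in P7 MB (13 to 25), 18 in P7 FB (6 to 23), 10 in P7 OB (4 to 19), 17 in E15.5 MB (5 to 24) and 15 in E15.5 FB (4 to 27). Medians on the exchanged plates were 18 in MB, 14 in FB and 10 in OB. P7 OB cells therefore held fewer channel genes than the other groups on both sets of plates, and they were also the cells with the fewest genes of any kind. A mean of at least 10 FPKM with the gene found in at least 50% of the cells of a group was reached by 22 of the 44 genes: 2 of 3 P/Q, N and R-type calcium pores, 1 of 3 T-type pores, none of 4 L-type pores, 3 of 4 alpha2delta genes, all 4 beta genes, 4 of 8 Cacng genes, 5 of 10 sodium pores, 2 of 4 sodium beta genes and 1 of 4 Hcn genes. These 22 and Cacna1d are described one by one, and the plot of levels shows them together.

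**Figure D1:**
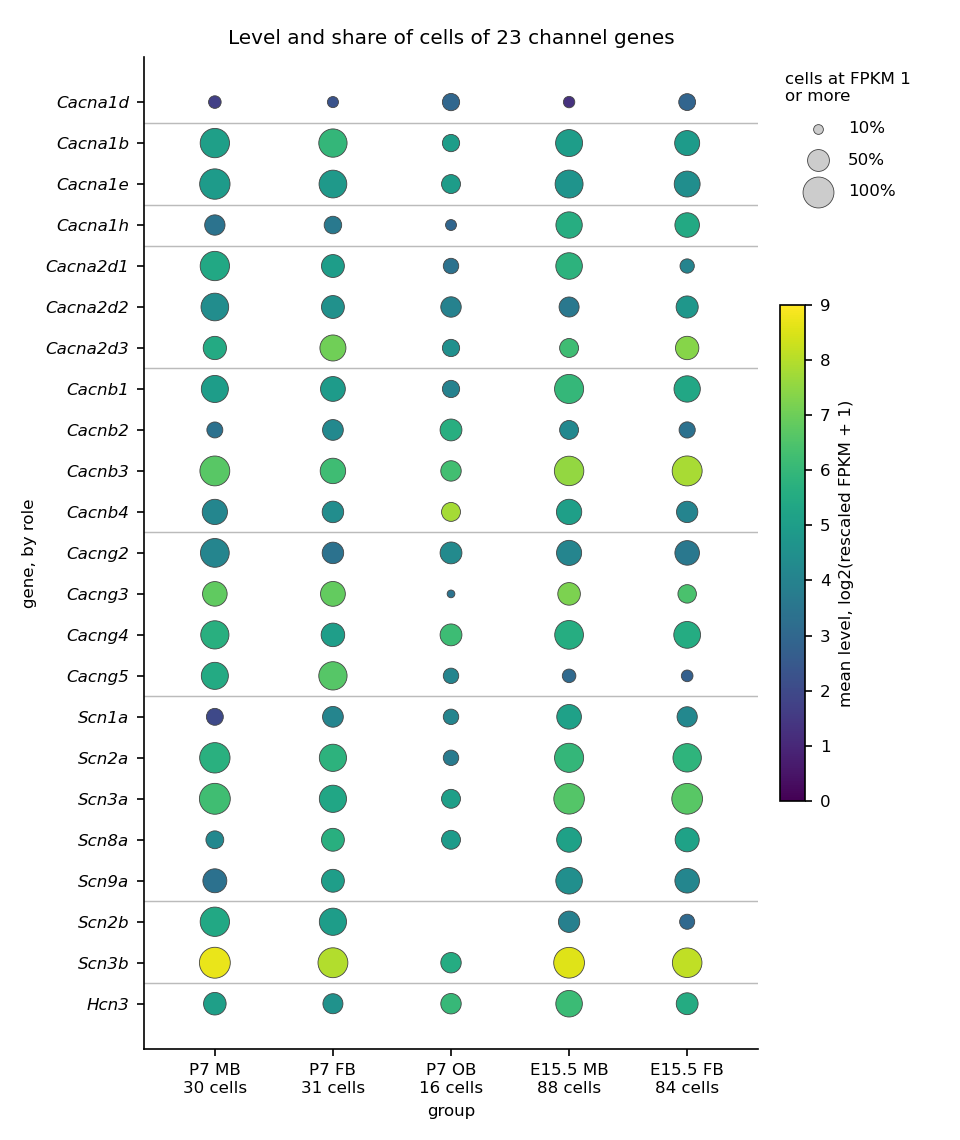
Rows are Cacna1d and the 22 channel genes whose mean was 10 FPKM or more in a group where at least 50% of cells held 1 FPKM or more; columns are the 5 groups. Colour gives log2(mean + 1) of FPKM rescaled per cell and dot size gives the share of cells with the gene found; Scn3b is the strongest of the genes shown in P7 MB, where it was found in 100% of cells, and Scn2b and Scn9a have no dot in P7 OB.

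In midbrain and forebrain, the 4 L-type pore genes were the pore family missing from the most cells. Cacna1d (ENSMUSG00000015968.16; mm10 chromosome 14, 30039939 to 30491455, minus strand) averaged 1.02 ± 3.22 FPKM in P7 MB, 2.32 ± 8.56 in P7 FB, 3.33 ± 6.68 in P7 OB, 1.31 ± 4.25 in E15.5 MB and 5.42 ± 14.4 in E15.5 FB. Its median was 0 in all 5 groups, and its highest cells held 15.2, 45.5, 22.8, 26.6 and 109 FPKM in the same order of groups. It was found in 16.7% of P7 MB cells, 12.9% of P7 FB, 31.3% of P7 OB, 13.6% of E15.5 MB and 29.8% of E15.5 FB. The cell values of the groups overlapped. P7 MB had the lowest mean as deposited, but rescaled it averaged 2.24, against 1.45 in E15.5 MB, which was then the lowest. On the exchanged plates Cacna1d was found in 6.67% of MB cells, 18% of FB cells and 36.5% of OB cells. The bulb had the highest share of the P7 groups on both sets of plates, while the lowest was FB on the matched plate and MB on the exchanged ones. Cacna1c, the pore of the Cav1.2 L-type channel, averaged 1.20, 2.64, 1.77, 7.06 and 7.37 FPKM in P7 MB, P7 FB, P7 OB, E15.5 MB and E15.5 FB, and no L-type gene was found in more than 39.3% of the cells of a group. No L-type pore gene was found in 66.7% of P7 MB cells, 71% of P7 FB, 50% of P7 OB, 50% of E15.5 MB and 40.5% of E15.5 FB. In the bulb the 3 T-type genes were missing from more cells, 56.3% on the matched plate, and 59.6% against 48.1% for the L-type genes on the exchanged plates. Cacna1d shares 589 exonic bases with Chdh on the opposite strand, which averaged at most 0.123 FPKM in a group. Over the 13 clusters in the labels, the channel genes whose mean log2(FPKM + 1) was most like that of Cacna1d were Cacna1i (r = 0.54), Cacna1c (r = 0.45) and Scn10a (r = 0.36). Scn10a was found in 1 of the 249 analysed cells and averaged at most 0.0217 FPKM in a group, so its r rests on values near 0. The clusters share libraries and gene numbers, and the values are a description.

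Cacna1b and Cacna1e, the pores of the N-type and R-type channels that serve transmitter release, were found in most midbrain and forebrain cells and in fewer bulb cells. Cacna1b averaged 14.9 ± 16.6 FPKM in P7 MB, 25.3 ± 27.7 in P7 FB, 14.6 ± 31.6 in P7 OB, 28.2 ± 40.1 in E15.5 MB and 27.01 ± 42.5 in E15.5 FB. It was found in 90%, 83.9%, 31.3%, 76.1% and 65.5% of these cells. Cacna1e averaged 12.03 ± 9.82 FPKM in P7 MB, 12.5 ± 12.3 in P7 FB, 13.9 ± 22.3 in P7 OB, 20.9 ± 23.0 in E15.5 MB and 17.9 ± 26.6 in E15.5 FB, and was found in 96.7%, 80.6%, 37.5%, 81.8% and 70.2% of cells. On the matched plates the bulb shares were the lowest of the 5 groups for both genes. There, 1 cell gave 51.95% of the P7 OB sum of Cacna1b, and the median P7 OB cell held 0 FPKM of Cacna1b and 0.197 of Cacna1e. On the exchanged plates Cacna1e was found in 63.5% of OB cells, against 86.7% of MB and 82% of FB cells. Its mean there was highest in OB, at 11.2 FPKM against 7.44 in MB and 7.06 in FB, and the median OB cell held 6.74. Among the P7 groups, the bulb thus had the lowest share of cells with Cacna1e on both sets of plates. The low bulb median of the matched plate was not seen on the exchanged plates. Of the 16 P7 OB cells, 50% had none of the 3 genes of this family, against 0% of P7 MB cells and 3.23% of P7 FB cells, and 17.3% of OB cells against 6.67% of MB and 6.00% of FB cells on the exchanged plates. Cacna1a, the P/Q-type pore, averaged 4.51, 5.42, 0.0735, 11.6 and 11.95 FPKM in P7 MB, P7 FB, P7 OB, E15.5 MB and E15.5 FB, and its absence from the P7 OB cells of the matched plate was not seen on the exchanged plates, where 34.6% of OB cells had it.

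Among the T-type pores, which open near rest and support bursts, Cacna1h was the embryonic one. Cacna1h (chromosome 17, 25374285 to 25433783, minus strand) averaged 3.99 ± 6.97 FPKM in P7 MB, 5.23 ± 11.1 in P7 FB, 3.11 ± 12.1 in P7 OB, 47.5 ± 71.1 in E15.5 MB and 45.5 ± 76.9 in E15.5 FB. The median cell held 0 in the 3 P7 groups, 21.5 FPKM in E15.5 MB and 13.8 in E15.5 FB, and the highest cells held 25.6, 46.4, 48.4, 520 and 420 FPKM in that order. The P7 ranges lie within the E15.5 ranges, but at both ages cells at 0 occur. P7 MB over E15.5 MB had a log2 fold, here and below log2((mean + 1)/(mean + 1)), of -3.28, and P7 FB over E15.5 FB one of -2.90. After rescaling they were -2.17 and -1.81, so Cacna1h was lower at P7 beyond the shift in summed FPKM. On the exchanged plates its rescaled mean was 13.6 in MB and 22.4 in FB, against 48 in E15.5 MB and 42.4 in E15.5 FB, lower again but less than 2-fold apart in FB. Cacna1g, the other T-type pore past 10 FPKM, averaged 5.87 ± 10.5 FPKM in P7 MB, 16.2 ± 50.4 in P7 FB, 13.2 ± 36.1 in P7 OB, 13.4 ± 38 in E15.5 MB and 20.6 ± 66.4 in E15.5 FB. Within the family, Cacna1h made up 39.6% of the rescaled level in P7 MB and 27.8% in P7 FB, against 76.1% in E15.5 MB and 66.7% in E15.5 FB. Cacna1g made up 59.2% in P7 MB, 70.1% in P7 FB, 22.2% in E15.5 MB and 24.8% in E15.5 FB, although 1 cell gave 54.8% of its P7 FB sum. On the exchanged plates the Cacna1h share was 50.2% in MB and 58.5% in FB, higher than on the matched plate and below the E15.5 shares. These shares of a family were computed after the values had been seen.

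At both ages, midbrain and forebrain differed in which of a pair of alpha2delta genes was found in more cells. Cacna2d1, which encodes the gabapentin-binding alpha2delta-1, was the more widely found of the pair in midbrain, and Cacna2d3, which encodes alpha2delta-3, in forebrain. Cacna2d1 (ENSMUSG00000040118.15; chromosome 5, 15934691 to 16374511, plus strand) averaged 18.4 ± 16.5 FPKM in P7 MB, 14.3 ± 20.1 in P7 FB, 4.47 ± 12.5 in P7 OB, 44.6 ± 56.5 in E15.5 MB and 19.0 ± 85.2 in E15.5 FB. Cacna2d3 (ENSMUSG00000021991.8; chromosome 14, 28904943 to 29721864, minus strand) averaged 20.1 ± 33 FPKM in P7 MB, 61.5 ± 77.6 in P7 FB, 9.62 ± 18.9 in P7 OB, 58.7 ± 122 in E15.5 MB and 149 ± 259 in E15.5 FB. Their promoters, 250 bases before to 50 after the RefSeq transcript start on GRCm38.p6, are shown because the pair differs by region; both are rich in CpG (42 CpG pairs in Cacna2d1 and 41 in Cacna2d3, against a median of 7 over 32851 promoters). Capitals mark the GC box GGGCGG or its reverse complement CCGCCC, which occurs 7 times at chr5:15934441-15934740 (plus strand) and 6 times at chr14:29721815-29722114 (minus strand):
Cacna2d1: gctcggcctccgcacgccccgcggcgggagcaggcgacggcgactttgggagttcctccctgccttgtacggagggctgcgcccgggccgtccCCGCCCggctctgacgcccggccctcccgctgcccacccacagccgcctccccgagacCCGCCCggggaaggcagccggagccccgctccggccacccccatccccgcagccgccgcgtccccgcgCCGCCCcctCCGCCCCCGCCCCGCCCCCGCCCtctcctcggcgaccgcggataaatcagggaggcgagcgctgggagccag
Cacna2d3: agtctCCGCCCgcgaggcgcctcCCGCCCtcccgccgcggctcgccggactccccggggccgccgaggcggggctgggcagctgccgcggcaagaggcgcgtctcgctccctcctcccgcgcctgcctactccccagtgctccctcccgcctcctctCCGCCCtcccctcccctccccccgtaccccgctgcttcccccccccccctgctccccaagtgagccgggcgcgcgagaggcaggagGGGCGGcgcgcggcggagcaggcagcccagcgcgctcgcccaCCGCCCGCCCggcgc
A GC box is in 35.7% of all promoters, so the letters common to this pair are a description and not a site.

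The median cell held 13.5 FPKM of Cacna2d1 in P7 MB, 1.47 in P7 FB, 0 in P7 OB, 28.3 in E15.5 MB and 0 in E15.5 FB. The highest cells held 53.3, 76.1, 49.4, 370 and 735 FPKM in that order, so the ranges overlapped, and the 1 E15.5 FB cell at 735 gave 46.1% of that group's sum. Cacna2d1 was found in 90% of P7 MB cells (exact 95% interval 73.5 to 97.9), against 54.8% of P7 FB cells (36 to 72.7), and in 73.9% of E15.5 MB cells (63.4 to 82.7), against 21.4% of E15.5 FB cells (13.2 to 31.7). It was found on the exchanged plates in 88.9% of MB, 36% of FB and 38.5% of OB cells. The log2 fold of E15.5 MB over E15.5 FB was 1.19 (1.53 and 0.90 on the 2 plates). At P7 the means of MB and FB were less than 2-fold apart on the matched plate, whereas on the exchanged plates they were 11.5 FPKM in MB and 4.59 in FB.

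Cacna2d3 ran the other way. Its median was 3.43 FPKM in P7 MB, 29.9 in P7 FB, 0 in P7 OB, 0 in E15.5 MB and 30.6 in E15.5 FB, with highest cells at 132, 258, 57.9, 546 and 1353 FPKM. The log2 fold was -1.57 for P7 MB over P7 FB (-0.78 and -0.70 on the exchanged plates) and -1.33 for E15.5 MB over E15.5 FB (-1.52 and -1.09 on the 2 plates), lower in midbrain on every plate. The genes were then read together in each cell, a count made after the values had been seen. In P7 MB, 16 of 30 cells had both, 11 had Cacna2d1 alone and 1 had Cacna2d3 alone, and in P7 FB 13 of 31 had both, 4 had Cacna2d1 alone and 9 had Cacna2d3 alone. In E15.5 MB, 24 of 88 cells had both, 41 had Cacna2d1 alone and 9 had Cacna2d3 alone, whereas in E15.5 FB 8 of 84 had both, 10 had Cacna2d1 alone and 40 had Cacna2d3 alone. On the exchanged plates Cacna2d3 alone was seen in 1 of 45 MB cells and in 21 of 50 FB cells. None of the 16 P7 OB cells of the matched plate and 5 of 52 on the exchanged plates had both. Cacna2d2, the gene of alpha2delta-2, averaged 9.09 ± 10.5 FPKM in P7 MB, 10.1 ± 15.9 in P7 FB, 6.65 ± 12.3 in P7 OB, 8.71 ± 17.9 in E15.5 MB and 24.1 ± 39.7 in E15.5 FB, with a log2 fold of -1.37 for E15.5 MB over E15.5 FB (-1.56 and -1.18).

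**Figure D2:**
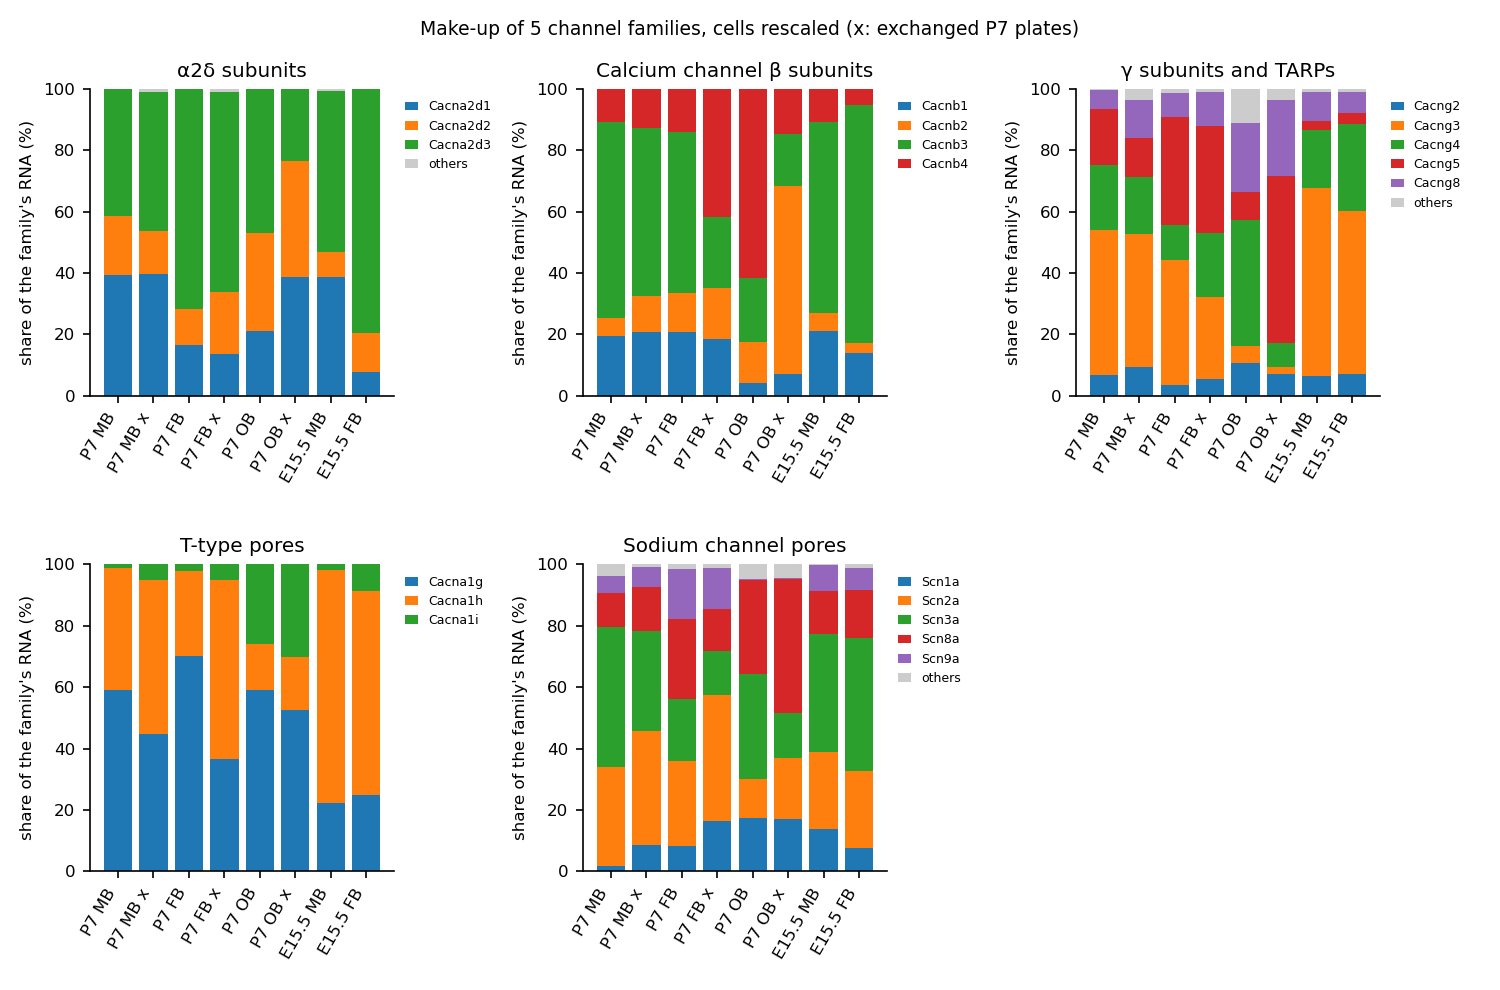
Stacked bars give the share, in percent, of each gene in the summed rescaled level of its family, for the 5 groups and, marked x, for the P7 groups on the exchanged plates. Cacna2d3 makes up 71.6% of the alpha2delta level in P7 FB and 79.6% in E15.5 FB, against 41.3% in P7 MB and 52.5% in E15.5 MB, and the Cacnb bars of P7 OB differ between the plates.

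Of the beta subunit genes, Cacnb3 was the largest in midbrain and forebrain at both ages. Cacnb3 averaged 43.2 ± 30.7 FPKM in P7 MB, 35.4 ± 49.3 in P7 FB, 35.4 ± 90.5 in P7 OB, 176 ± 156 in E15.5 MB and 254 ± 284 in E15.5 FB, and made up 63.9%, 52.2%, 20.9%, 62.3% and 77.6% of the family's rescaled level. On the exchanged plates Cacnb3 was 54.8% of it in MB, but Cacnb4 was larger in FB (41.6% against 23.0% for Cacnb3). The median cell held 43.6 FPKM of Cacnb3 in P7 MB, 24.8 in P7 FB, 0 in P7 OB, 133 in E15.5 MB and 138 in E15.5 FB; the P7 OB mean rests on few cells, 1 of which gave 63.8% of it. P7 FB over E15.5 FB had a log2 fold of -2.81 as deposited and -1.62 rescaled. Cacnb2 was higher in the bulb than in P7 midbrain or forebrain on both sets of plates, at 3.84 ± 8.41 FPKM in P7 MB and 7.89 ± 20.0 in P7 FB, against 25.5 ± 45.5 in P7 OB. It was found in 26.7% of P7 MB, 45.2% of P7 FB and 50% of P7 OB cells, and in 22.2%, 34% and 71.2% on the exchanged plates. Its log2 fold was -2.46 for P7 MB over P7 OB (-2.14 and -2.43 on the exchanged plates) and -1.58 for P7 FB over P7 OB (-2.43 and -1.18). Within the bulb, Cacnb2 was 13.5% of the family's rescaled level on the matched plate, below Cacnb4 (61.5%) and Cacnb3, and 61.3% on the exchanged plates. Cacnb4 averaged 71.6 ± 162 FPKM in P7 OB, against 7.45 ± 9.82 in P7 MB and 10.4 ± 32.7 in P7 FB, but 1 bulb cell gave 54.1% of that sum and its median was 0. OB cells of the exchanged plates averaged 5.79 FPKM of Cacnb4. Cacnb1 averaged 13.3 ± 12.2 FPKM in P7 MB, 12.3 ± 13.9 in P7 FB, 6.02 ± 15.2 in P7 OB, 55.1 ± 55 in E15.5 MB and 39.6 ± 54.6 in E15.5 FB, and P7 MB over P7 OB was 1.03 on the log2 scale (1.10 and 1.16). Cacnb4 shares 1170 exonic bases with A430018G15Rik on the opposite strand and Cacnb2 up to 390 with Gm10849; the counting strand is not given in the sources used here, so such reads cannot be told apart.

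Of the 8 Cacng genes, the TARP gene Cacng3 was the largest in P7 MB, P7 FB and both E15.5 groups of the matched plates, and it was nearly missing from bulb cells. On the exchanged plates Cacng3 was again the largest in MB (43.3% of the family's rescaled level), but in FB it made up 26.7%, against 34.8% for Cacng5. Cacng3 (chromosome 7, 122670492 to 122769393, plus strand) averaged 50.8 ± 73.6 FPKM in P7 MB, 55.3 ± 73.9 in P7 FB, 4.52 ± 18.1 in P7 OB, 130 ± 208 in E15.5 MB and 73.3 ± 151 in E15.5 FB. In P7 OB it was found in 1 of 16 cells, at 72.3 FPKM, and in 3 of 52 cells on the exchanged plates, against 63.3% of P7 MB and 64.5% of P7 FB cells. The log2 fold was 3.23 for P7 MB over P7 OB (2.74 and 2.87 on the exchanged plates) and 3.35 for P7 FB over P7 OB (2.01 and 3.18), high on every plate.

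On the matched plates, Cacng5, which encodes the type II TARP gamma-5, was the channel gene whose share of positive cells differed most between the ages, higher at P7 in both regions. It (ENSMUSG00000040373.12; chromosome 11, 107874605 to 107915055, minus strand) averaged 18.3 ± 21.4 FPKM in P7 MB and 44.2 ± 50.1 in P7 FB, against 6.57 ± 19.7 in E15.5 MB and 4.63 ± 17.9 in E15.5 FB. The median cell held 11.3 FPKM in P7 MB, 22.4 in P7 FB and 0 in both E15.5 groups, with highest cells at 72.5, 183, 129 and 104 FPKM in that order. It was found in 76.7% of P7 MB cells (57.7 to 90.1), against 19.3% of E15.5 MB cells (11.7 to 29.1), and in 83.9% of P7 FB cells (66.3 to 94.5), against 14.3% of E15.5 FB cells (7.61 to 23.6). The log2 fold was 1.35 for P7 MB over E15.5 MB and 3.01 for P7 FB over E15.5 FB, and 2.40 and 3.91 after rescaling; on 1 exchanged plate the deposited value for MB was -0.67. The exchanged plates had it in 53.3% of MB and 72% of FB cells. In MB of those plates the share of Scn1a differed more from E15.5 MB, at 26.7% against 63.6% of cells. Between regions, Cacng5 was lower in P7 MB than in P7 FB on all 3 plates (log2 folds of -1.23, -2.03 and -1.02). The bulb differed by plate: P7 OB averaged 5.82 ± 13.2 FPKM on the matched plate and 26.99 ± 61.03 on the exchanged plates, found in 25% and 28.8% of cells, so neither direction against the bulb holds on every plate.

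Cacng4 averaged 23.3 ± 28.4 FPKM in P7 MB, 13.7 ± 20.9 in P7 FB, 32.3 ± 64.5 in P7 OB, 45.8 ± 87.6 in E15.5 MB and 43.9 ± 60.5 in E15.5 FB. Its log2 fold of -1.18 for P7 FB over P7 OB turned to 0.62 and 2.10 on the exchanged plates. Cacng2, which encodes stargazin, averaged 7.53 ± 7.44 FPKM in P7 MB, 4.67 ± 6.51 in P7 FB, 6.15 ± 10.7 in P7 OB, 18.9 ± 37.7 in E15.5 MB and 11.98 ± 18.97 in E15.5 FB, and was found in 86.7%, 48.4%, 50%, 65.9% and 63.1% of cells. P7 midbrain was the group with the most Cacng2-positive cells on both sets of plates (86.7% on the exchanged ones). Cacng2 shares 323 exonic bases with A730060N03Rik on the opposite strand. That gene averaged 3.26, 5.62, 0.711, 9.24 and 4.67 FPKM in P7 MB, P7 FB, P7 OB, E15.5 MB and E15.5 FB. Reads of the shared bases cannot be told apart, since the counting strand is not given. The other 4 Cacng genes did not reach the minimums; Cacng8 was the highest of them, at 7.08, 8.81, 16.0, 21.8 and 10.2 FPKM in P7 MB, P7 FB, P7 OB, E15.5 MB and E15.5 FB, and the muscle gene Cacng1 was found in 1 P7 OB cell and 1 E15.5 FB cell.

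**Figure D3:**
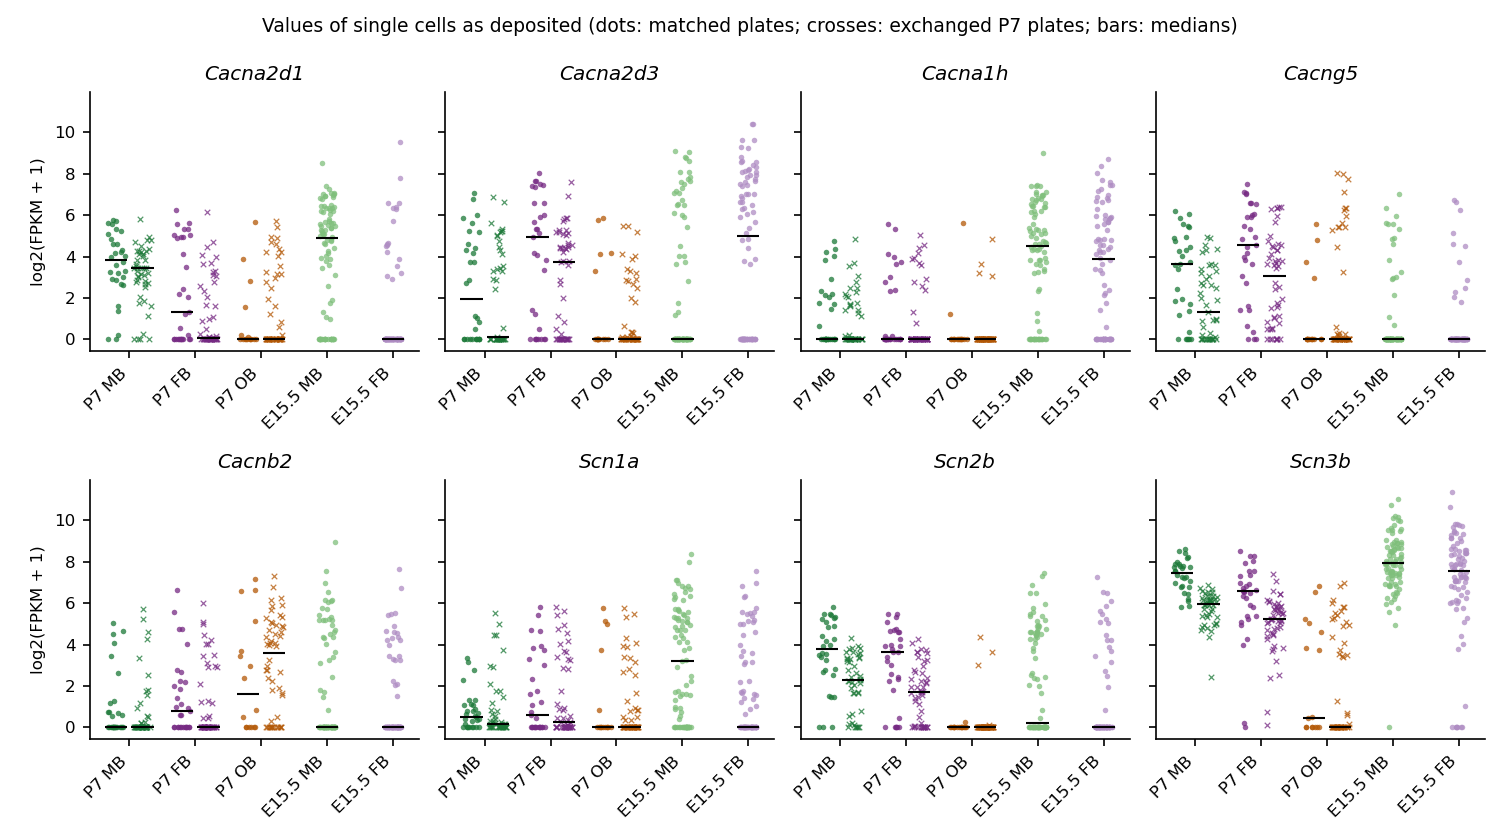
Each point is 1 cell, as log2(FPKM + 1), for 8 channel genes in the 5 groups. Dots are cells of the matched plates, crosses cells of the exchanged plates, and bars are medians, drawn for dots and crosses separately. The Cacna2d1 median of the dots is above 0 in P7 MB, P7 FB and E15.5 MB, and no P7 OB dot of Scn2b reaches 1 FPKM.

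Scn3a and Scn2a, the pores Nav1.3 and Nav1.2, had the highest means of the sodium pore genes in P7 MB and both E15.5 groups. Scn3a averaged 31.9 ± 18.7 FPKM in P7 MB, 19.4 ± 29 in P7 FB, 12.4 ± 38.7 in P7 OB, 93.8 ± 101 in E15.5 MB and 99.2 ± 107 in E15.5 FB, and was found in 100%, 77.4%, 37.5%, 97.7% and 98.8% of cells. The lowest P7 MB cell still held 1.13 FPKM, whereas at least 1 cell was at 0 in P7 FB, P7 OB and E15.5 MB. Scn2a averaged 23.0 ± 11.4 FPKM in P7 MB, 25.8 ± 25.4 in P7 FB, 5.48 ± 13.5 in P7 OB, 61.5 ± 91.5 in E15.5 MB and 52.8 ± 59 in E15.5 FB. Both genes were higher in P7 MB than in P7 OB on every plate: the log2 folds were 1.89 for Scn2a (1.30 and 1.47 on the exchanged plates) and 1.30 for Scn3a (0.75 and 2.18). Scn2a was also higher in P7 FB than in P7 OB, by 2.05 (1.25 and 1.37). Scn3a made up 45.7% of the rescaled pore level in P7 MB and 20.2% in P7 FB, against 38.6% in E15.5 MB and 43.3% in E15.5 FB, with 32.5% and 14.3% in MB and FB of the exchanged plates. In P7 FB the largest shares were 27.8% for Scn2a and 26% for Scn8a, and on the exchanged plates 41.1% for Scn2a and 16.3% for Scn1a. P7 FB over E15.5 FB was -2.29 for Scn3a, and -1.31 rescaled.

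Scn9a, which encodes Nav1.7, a pore best known from pain neurons, was found in every group but the P7 bulb. Scn9a (ENSMUSG00000075316.11; chromosome 2, 66480080 to 66634962, minus strand) averaged 4.10 ± 6.92 FPKM in P7 MB, 15.5 ± 22.0 in P7 FB, 0.0892 ± 0.169 in P7 OB, 21.3 ± 35.3 in E15.5 MB and 13.7 ± 22.2 in E15.5 FB. The median cells held 1.68, 10.7, 0, 6.81 and 2.75 FPKM and the highest 35.5, 103, 0.488, 242 and 147 FPKM in that order. It was found in 60% of P7 MB and 54.8% of P7 FB cells, against 0 of 16 P7 OB cells, which allows a share of up to 20.6%, and against 1 of 52 OB cells on the exchanged plates. The log2 fold of P7 FB over P7 OB was 3.92 (1.13 and 3.35). The P7 MB over P7 FB value of -1.69 was not seen on every plate (0.13 and -1.43). Scn2b, which encodes the beta-2 subunit, disulfide-linked to the pore, was not found in these bulb cells either. It (ENSMUSG00000070304.11; chromosome 9, 45117782 to 45130070, plus strand) averaged 18.3 ± 16.2 FPKM in P7 MB, 13.7 ± 13.3 in P7 FB, 0.0130 ± 0.0519 in P7 OB, 16.7 ± 31.6 in E15.5 MB and 9.12 ± 24.6 in E15.5 FB. The promoters of this pair are shown because neither gene reached 1 FPKM in a P7 OB cell of the matched plate; no GC box or TATA box (TATAAA, either strand) is in them, so they hold no capitals, and they hold 2 CpG pairs in Scn2b (chr9:45117626-45117925, plus strand) and 9 in Scn9a (chr2:66634913-66635212, minus strand):
Scn2b: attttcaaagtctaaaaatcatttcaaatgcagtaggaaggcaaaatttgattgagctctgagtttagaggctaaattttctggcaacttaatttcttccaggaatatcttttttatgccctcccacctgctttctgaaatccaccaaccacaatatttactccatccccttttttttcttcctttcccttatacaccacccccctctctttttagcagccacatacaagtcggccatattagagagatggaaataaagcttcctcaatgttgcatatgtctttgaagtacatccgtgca
Scn9a: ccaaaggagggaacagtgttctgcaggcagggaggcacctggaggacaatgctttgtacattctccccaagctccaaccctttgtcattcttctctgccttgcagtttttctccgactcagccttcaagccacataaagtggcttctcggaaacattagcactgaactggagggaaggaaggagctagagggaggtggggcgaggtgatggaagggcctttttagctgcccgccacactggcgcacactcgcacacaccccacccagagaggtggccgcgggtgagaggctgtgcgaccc
Of the 44 genes, 32 matched 43 promoters in the RefSeq table; a GC box is in 41.9% of these against 35.7% of all promoters, and a TATA box is in 4.65% against 13.6%.

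Scn2b was found in 90% of P7 MB and 77.4% of P7 FB cells, against 0 of 16 P7 OB cells, which again allows up to 20.6%. The exchanged plates gave shares of 73.3% in MB, 62% in FB and 3 of 52 cells in OB. The log2 folds were 4.25 for P7 MB over P7 OB (2.25 and 1.64 on the exchanged plates) and 3.86 for P7 FB over P7 OB (2.25 and 0.93). With age, Scn2b was found in more cells: 90% of P7 MB against 47.7% of E15.5 MB, and 77.4% of P7 FB against 23.8% of E15.5 FB, and its rescaled log2 folds were 1.50 in MB and 1.91 in FB. Scn3b, the gene of the beta-3 subunit, had the highest mean of all 44 genes in P7 MB, P7 FB, E15.5 MB and E15.5 FB. It averaged 184 ± 92.4 FPKM in P7 MB, 117 ± 97.1 in P7 FB, 20.2 ± 34.7 in P7 OB, 364 ± 358 in E15.5 MB and 304 ± 381 in E15.5 FB. The lowest P7 MB cell held 54.9 FPKM, while the median P7 OB cell held 0.393, so most bulb cells lay below every midbrain cell, though the highest at 113 FPKM overlapped them. P7 MB over P7 OB was 3.13 on the log2 scale (1.65 and 1.82 on the exchanged plates).

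Scn1a and Scn8a, the pores Nav1.1 and Nav1.6 of many mature neurons, had lower means at P7 than at E15.5 in both regions as deposited. Scn1a averaged 1.30 ± 2.33 FPKM in P7 MB, 6.99 ± 13.3 in P7 FB, 8.19 ± 16.3 in P7 OB, 32.6 ± 54.4 in E15.5 MB and 13.9 ± 31.1 in E15.5 FB. The median cell held 0.441, 0.498, 0, 8.30 and 0 FPKM and the highest 9.09, 56.1, 52.9, 334 and 190 FPKM in that order. P7 MB over E15.5 MB was -3.87, and -3.13 rescaled, the lowest fold of the 44 genes in that comparison on both scales. This size holds for the matched plate alone: on the exchanged plates Scn1a averaged 20.0 rescaled in MB, against 34 in E15.5 MB, a smaller difference than that of Cacna1h. In forebrain, Scn1a averaged 15.9 rescaled in P7 FB and 37.2 in FB of the exchanged plates, against 17.6 in E15.5 FB. Its lower deposited mean in P7 FB thus did not hold on the exchanged plates after rescaling. In the embryo Scn1a was higher in midbrain, at 1.17 (0.99 and 1.27 on the 2 plates), found in 63.6% of E15.5 MB cells against 42.9% of E15.5 FB cells. Scn8a averaged 7.80 ± 14.8 FPKM in P7 MB, 19.9 ± 27.4 in P7 FB, 14.2 ± 31.8 in P7 OB, 29.3 ± 50.8 in E15.5 MB and 38.3 ± 63.7 in E15.5 FB; its P7 MB over P7 FB value of -1.25 became -0.10 and 0.30 on the exchanged plates. Rescaled, Scn8a averaged 50.5 in P7 FB against 35.8 in E15.5 FB, so its order with age in forebrain turned with the scale on the matched plate. On the exchanged plates the rescaled FB mean was 31.7, below that of E15.5 FB, so it did not turn there.

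Of the Hcn genes, Hcn3 had the highest mean in all 5 groups, and Hcn2 and Hcn4, the pores most often named for pacemaking, stayed low. Hcn3 averaged 16.6 ± 23.7 FPKM in P7 MB, 10.7 ± 18.5 in P7 FB, 31.5 ± 53.3 in P7 OB, 64.8 ± 85.1 in E15.5 MB and 42.9 ± 69.6 in E15.5 FB, and was found in 53.3%, 41.9%, 43.8%, 73.9% and 50% of cells. It made up 65.7% of the Hcn level in P7 MB, 65.2% in P7 FB, 85.7% in P7 OB, 85.8% in E15.5 MB and 80.1% in E15.5 FB, rescaled. P7 MB over E15.5 MB was -1.91, and -1.08 rescaled. Hcn4 averaged 4.09, 3.04, 0.103, 4.93 and 8.67 FPKM in P7 MB, P7 FB, P7 OB, E15.5 MB and E15.5 FB and was found in 40% of P7 MB cells against 1 of 16 P7 OB cells. No Hcn gene was found in 20% of P7 MB, 45.2% of P7 FB, 37.5% of P7 OB, 17% of E15.5 MB and 32.1% of E15.5 FB cells. Hcn3 shares 711 exonic bases with Pklr on the opposite strand, which averaged at most 0.117 FPKM in a group.

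The channel genes were then counted by comparison. A gene was counted if it averaged at least 1 FPKM in either group and called at a fold of 2 or more on the log2((mean + 1)/(mean + 1)) scale, beside the same over all protein-coding features. For P7 MB over P7 FB, 1 of 35 counted channel genes was at least 2-fold higher and 8 were lower, against a background of 10.2% higher and 13.1% lower of all features. Those that met the minimums were all lower in midbrain: Cacna2d3, Cacng5, Scn8a and Scn9a, of which Cacna2d3 and Cacng5 kept their direction on both exchanged plates. The only gene counted higher in midbrain was Scn11a, named after its values were seen, at 1.14 FPKM in P7 MB and 0.0208 in P7 FB. For E15.5 MB over E15.5 FB, 5 of 35 were higher and 5 lower, with a background of 7.65% and 8.17%; rescaled, 3 were higher and 5 lower (7.80% and 6.14%). The named ones were Cacna2d1 and Scn1a, higher in midbrain, and Cacna2d2 and Cacna2d3, lower. Of these 4, 3 belong to the alpha2delta family, but the minimums left out the other genes called. Cacna1d, which is below the minimums, was also lower in midbrain, at 1.31 FPKM in E15.5 MB against 5.42 in E15.5 FB. Rescaled, these means were 1.45 and 6.39, and it was found in 13.6% against 29.8% of cells.

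Against the bulb, 12 of 36 counted genes were higher and 10 lower in P7 MB, with a background of 29.4% higher and 19.4% lower, and 12 of 37 were higher and 7 lower in P7 FB, with a background of 30.6% and 17.2%. The shares of channel genes are near those of all features, so the number of calls is no result about the channels. Scn2a, Scn2b, Scn3b and Cacng3 were higher, and Cacnb2 lower, in both P7 MB and P7 FB than in P7 OB and on all plates; the comparisons share the P7 OB cells. Cacna2d1, at 1.83 for P7 MB over P7 OB (0.36 and 0.95) and 1.49 for P7 FB over P7 OB (-0.67 and -0.11), was not stable in FB.

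**Figure D4:**
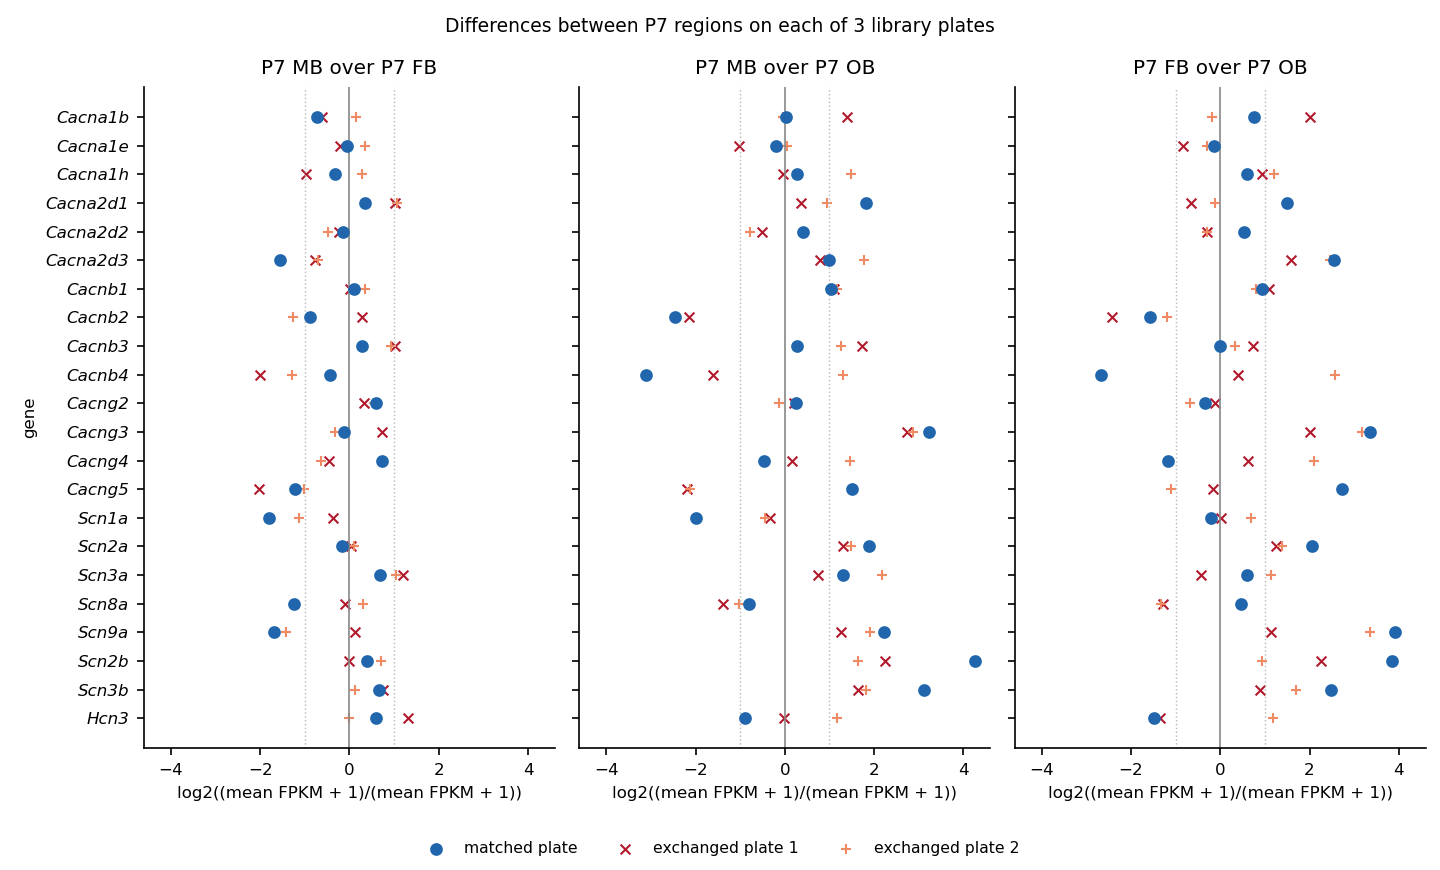
Points give the log2 fold of 22 channel genes in the 3 regional comparisons at P7, on the matched plate and on each of the 2 exchanged plates, with lines at 0 and at 2-fold. Cacng3, Scn2a, Scn2b and Scn3b lie to the right of 0 in both comparisons with the bulb on all 3 plates and Cacnb2 to the left, while Cacng5 lies on both sides.

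Between the ages, as deposited, 2 of 35 counted genes were at least 2-fold higher and 20 lower in P7 MB than in E15.5 MB, with a background of 5.08% higher and 58.3% lower, and the median log2 fold was -1.22 for the channel genes and -1.19 for all features. Rescaled, 5 of 36 were higher and 7 lower, with a background of 14.1% and 24.0%. In FB, 3 of 36 were higher and 17 lower at P7 as deposited (background 6.50% and 58.7%), and 8 of 37 higher and 4 lower when rescaled (16.7% and 24.6%), with rescaled medians of 0.28 for the channel genes and -0.19 for all features. Most deposited differences with age are thus the size of the shift in all genes. Cacna1h in both regions, Scn1a, Scn9a and Hcn3 in MB, and Cacnb3 and Scn3a in FB were at least 2-fold lower at P7 on both scales on the matched plate, and Cacng5 was at least 2-fold higher in both regions on both scales. Rescaled means on the exchanged plates were less than 2-fold apart for Scn1a, for Scn9a (15.6 in MB, against 20.8 in E15.5 MB), for Hcn3 (56.4 against 69.4) and for Cacna1h in FB. There, Cacnb3 stayed lower in FB, at 46.6 against 225 in E15.5 FB, as did Scn3a, at 32.5 against 99.1. Rescaled and over all 3 P7 plates, 5 genes were higher and 3 lower in MB, against 5 and 7 on the matched plate. No share of all features is given for the 3 plates, so this change in count is no result about the channels. Age here goes together with the pool, the dissociation and the plates, which cannot be told apart. The make-up of the cells also differed. Markers of midbrain dopaminergic cells summed to at least 1 FPKM in 28 of 30 P7 MB cells and in 42 of 88 E15.5 MB cells. The part of make-up in the differences with age was not tested.

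The 13 cluster labels were made by the authors from the expression of these cells, so channel genes by cluster are a description. In the embryonic midbrain, 4 of 34 counted genes were higher and 4 lower in E15.MB.2 (20 cells) than in E15.MB.1 (68 cells), with a background of 12.1% and 15.6%. Cacna2d3 averaged 148 FPKM in E15.MB.2, against 32.5 in E15.MB.1, and was found in 80% against 25% of cells (log2 fold 2.15, with 1.14 and 3.24 on the 2 plates). Scn3b averaged 681 FPKM in E15.MB.2, against 271 in E15.MB.1 (1.32), and Scn2a ran the other way, at 30.5 against 70.6 FPKM (-1.19). Cacna1b (1.15) was higher and Cacnb4 (-1.09) lower in E15.MB.2. Both alpha2delta genes were found in 11 of 20 E15.MB.2 cells, while 38 of 68 E15.MB.1 cells had Cacna2d1 alone.

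In the embryonic forebrain, 5 of 34 counted genes were higher and 5 lower in E15.FB.2 (24 cells) than in E15.FB.1 (60 cells), with a background of 11.0% and 20.4%. Cacng3 averaged 198 FPKM in E15.FB.2, against 23.5 in E15.FB.1, and was found in 70.8% against 21.7% of cells (3.02, with 3.12 and 2.42 on the 2 plates). Cacna2d3 averaged 281 FPKM, against 97.0, and was found in 95.8% against 41.7% of cells (1.52, with 2.06 and 0.65). Of the 24 E15.FB.2 cells, 21 had Cacna2d3 without Cacna2d1, 2 had both and none had Cacna2d1 alone.

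Among P7 forebrain clusters, 6 of 34 counted genes were higher and 14 lower in P7.FB.1 (10 cells) than in P7.FB.2 (21 cells), with a background of 15.8% and 30.9%. Scn9a averaged 28.8 FPKM in P7.FB.1, against 9.18 in P7.FB.2 (1.55, with 1.43 and 1.32 on the exchanged plates), and over all 3 plates it was found in 80.8% against 36.4% of cells. Scn3a ran the other way, at 4.79 against 26.4 FPKM (-2.24, with -1.28 and -2.89), found over the 3 plates in 30.8% against 87.3% of cells. Scn8a was also lower in P7.FB.1 (-1.26, with -1.49 and -1.47), as was Cacna1e (-1.50, with -0.01 and -0.76). The clusters of P7 FB thus differed in which sodium pore was found. Hcn3, singled out after its values were seen, was found in 0 of 10 P7.FB.1 cells, against 61.9% of P7.FB.2 cells, and over 3 plates in 15.4% against 52.7%.

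**Figure D5:**
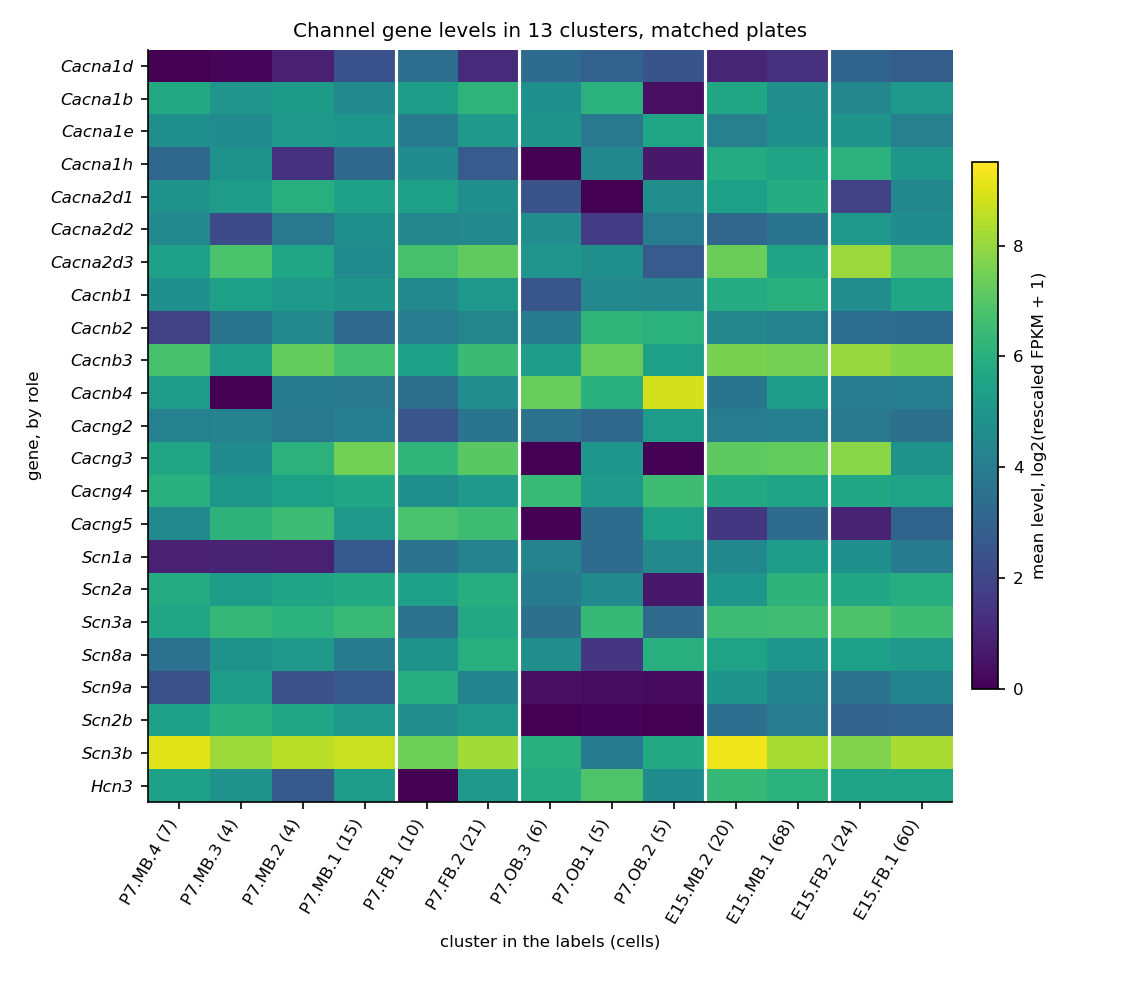
Rows are 23 channel genes and columns the 13 clusters in the labels; colour is log2(mean + 1) of rescaled FPKM. The Scn2b and Scn9a rows are at or near 0 in the 3 P7.OB columns, and the Cacna2d1 row is low in E15.FB.2 beside a high Cacna2d3 row.

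The P7 midbrain clusters are small on the matched plate. Against P7.MB.1 (15 cells), 5 of 34 genes were higher and 8 lower in P7.MB.4 (7 cells; background 14.9% and 16.2%), 3 of 31 higher and 13 lower in P7.MB.3 (4 cells; 15.8% and 33.7%), and 2 of 32 higher and 11 lower in P7.MB.2 (4 cells; 14.3% and 32.5%). Rescaled, the count for P7.MB.2 was 5 higher and 11 lower of 35 (18.3% and 31.7%). Cacng3 averaged 9.50 FPKM in P7.MB.3, against 80.4 in P7.MB.1 (-2.96, with -4.11 and -4.73 on the exchanged plates), and over the 3 plates was found in 10% against 66.7% of cells. P7.MB.4 had 25.6 FPKM of Cacng3 (-1.61, with -1.27 and -0.36). Cacna2d3 was higher in P7.MB.3, at 49.1 FPKM against 13.3 in P7.MB.1 (1.81, with 1.03 and 0.98), and Cacnb3 lower, at 14.8 against 44 (-1.51). Cacng5 was higher in P7.MB.2 than in P7.MB.1 (1.01), and Cacna1g was too (1.01), though not without its highest cell. Cacna1d was found in no cell of P7.MB.3 (10 cells over the 3 plates) or P7.MB.4 (15 cells) on any of the 3 plates. It was found in only 16.7% of all P7 MB cells on the matched plate and 6.67% on the exchanged plates. So few cells cannot show that the gene is missing from these clusters.

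In the bulb, 5 of 29 counted genes were higher and 12 lower in P7.OB.3 (6 cells) than in P7.OB.2 (5 cells), with a background of 41.7% and 23.9%, and 9 of 29 were higher and 15 lower in P7.OB.1 (5 cells; background 41.7% and 31%). With so few cells, single cells set these values. Cacna1b was found in 50% of P7.OB.3 cells, against 0% of P7.OB.2 cells, and over the 3 plates in 46.7% against 21.2%. Cacna2d1 and Cacnb2 were lower in P7.OB.3 (-1.91 and -2.11), and Cacna1e lower in P7.OB.1 (-1.67); Cacnb2 and Cacna1e kept this direction on both exchanged plates, while Cacna2d1 was -3.07 on 1 and did not differ on the other.

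Genes of channel partners were read as a surrounding, by lists of known partners. All values in this paragraph are from the matched plates, with 16 P7 OB cells. None from the exchanged plates are given, so whether these differences hold there is not known. Of 9 genes for the cytoplasmic and anchoring partners of sodium channels (Fgf11 to Fgf14, ankyrins and others), 1 of 8 counted was higher and 2 lower in P7 MB than in P7 FB, and 3 of 8 were higher and 2 lower in P7 MB than in P7 OB, beside the shares of all features given above for these comparisons. Fgf13, which encodes an intracellular partner of sodium pores, averaged 538 FPKM in P7 MB and 198 in P7 FB, against 7.04 in P7 OB, and was found in 90% and 80.6% against 25% of cells. Nedd4l, a ubiquitin ligase known to act on sodium channels, averaged 11.2 FPKM in P7 MB and 13.3 in P7 FB, against 1.20 in P7 OB. Ankyrin-G, the anchor of sodium channels at the axon initial segment, ran the other way, with Ank3 at 25.3 FPKM in P7 MB and 33.7 in P7 FB, against 70.8 in P7 OB. Of 12 calcium channel partners, 3 of 11 counted were higher and 2 lower in P7 MB than in P7 OB, where 29.4% and 19.4% of all features were. Among the lower ones was Stac2, an adaptor of L-type pores, at 0.0640 FPKM in P7 MB, against 18.7 in P7 OB. Of 19 genes for calcium buffers, pumps and stores, 3 of 15 counted were higher and 7 lower in P7 MB than in E15.5 MB as deposited. The shares over all features were 5.08% higher and 58.3% lower. In P7 FB 3 of 15 were higher and 3 lower than in E15.5 FB, where the shares over all features were 6.50% and 58.7%. Rescaled, 5 of 15 were higher and 2 lower in MB, where the shares over all features were 14.1% and 24.0%, and 8 of 16 higher and 1 lower in FB, where they were 16.7% and 24.6%. The buffers Calb1 and Calb2 were among those higher: rescaled, Calb1 averaged 272 in P7 MB against 5.92 in E15.5 MB, and Calb2 871 against 81.4. None of the 4 genes of the sodium leak channel complex was 2-fold apart between regions as deposited, beside the shares of all features given above. Rescaled, 1 of the 4 was at least 2-fold lower in P7 MB than in P7 OB. No rescaled share of all features is given for that comparison. The median log2 fold of the 4 genes there was -0.84 as deposited and -0.95 rescaled. So few genes allow no reading of the count.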

How the data were processed

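Single Th:EGFP cells were sequenced as full-length libraries, and the authors made the deposited FPKM values with HISAT2 and Cuffnorm on mm10, per the submitters' processing notes; versions and the annotation are not given in the sources used here. FPKM are not counts, so depth per cell is unknown and no count test was run. Symbols, coordinates and exon overlaps come from GENCODE M21, and promoters from RefSeq (GRCm38.p6). Cells were grouped by labelled age, region and cluster. Of 473 cells, 396 passed the authors' quality control, and 249 lie on plates whose columns matched the labelled gene numbers (r of at least 0.9); the exchange of the other 2 P7 plates was chosen after seeing the data. No 2 columns were identical, and no doublet caller was run on these sorted wells. Means were compared as log2((mean + 1)/(mean + 1)) over features with a mean of at least 1 in either group, also with each cell rescaled to a protein-coding sum of 1000000. The channel genes and the lists were chosen with earlier results of these data known; 1 gene, counted in the totals, is not reported by name here. A gene is described with values at a mean of at least 10 and found in at least 50% of a group's cells. A comparison names the genes past 2-fold that meet this in the higher group, and a cluster comparison up to 3 in each direction that also kept their direction by plate. Alternatives were another pseudocount, minimum, mean of logs, rescaling, plates, gene-rich cells and leaving out the highest cell. Python 3.11.15, numpy 2.4.6, pandas 2.3.3, scipy 1.17.1 and matplotlib 3.10.9 were used, and the script was tested on simulated data.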

Additional observations from a re-analysis of the deposited data

Results flagged for a closer look

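Scn1a stood out because its difference between midbrain and forebrain ran in opposite directions at the 2 ages. The log2 fold was -1.80 for P7 MB over P7 FB (-0.36 and -1.14 on the exchanged plates) and 1.17 for E15.5 MB over E15.5 FB (0.99 and 1.27 on the 2 plates). The difference between the ages was not tested, since each group is 1 pool. Scn1a averaged 1.30 FPKM in P7 MB and 6.99 in P7 FB, and on the exchanged plates 3.54 in MB and 6.57 in FB, against 32.6 in E15.5 MB and 13.9 in E15.5 FB. These are deposited values, and summed FPKM differs between the plates. Rescaled, Scn1a averaged 15.9 in P7 FB and 37.2 in FB of the exchanged plates, against 17.6 in E15.5 FB.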

How the results depend on the processing

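No share of all features is given for the alternatives below, apart from the rescaled counts on the matched plates. Counts of channel genes at least 2-fold apart moved by more than 1.5 times as follows, and the cause was not tested. With all 3 P7 plates, 2 of them exchanged, they were 5 in place of 9 for P7 MB over P7 FB, 12 in place of 19 for P7 FB over P7 OB, 3 in place of 13 for P7.MB.4, 10 in place of 16 for P7.MB.3, 7 in place of 13 for P7.MB.2, 13 in place of 20 for P7.FB.1, 7 in place of 17 for P7.OB.3 and 15 in place of 24 for P7.OB.1. A minimum mean of 5 gave 14 in place of 22 for P7 MB over P7 OB, 5 for P7.MB.4, 10 for P7.MB.3 and 7 for P7.MB.2. Means of log2 values gave 10 in place of 22 for P7 MB over E15.5 MB, 10 in place of 20 for P7 FB over E15.5 FB, 4 in place of 8 for E15.MB.2 and 6 for P7.MB.2. Rescaling gave 12 for both ages' comparisons, and 8 for midbrain with 3 plates. Single plates gave 14 and 13 for E15.MB.2, 19 in place of 10 for E15.FB.2, 6 and 7 for P7.MB.4, 11 for P7.FB.1 and 11 for P7.OB.1.

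Of the folds of named genes under the alternatives, 28 changed sign. For P7 MB over P7 FB these were Scn9a (0.13) and Scn8a (0.30), each on 1 exchanged plate. For P7 MB over P7 OB it was Cacng5, at -2.18 and -2.13 on the exchanged plates, -0.98 over 3 plates and -1.98 rescaled. For P7 FB over P7 OB they were Cacng4 (0.62 and 2.10 by plate, 0.18 over 3 plates, 0.49 rescaled, 0.22 by mean log2 and 3.05 in cells with at least 4000 genes), Cacna2d1 (-0.67 and -0.11 by plate, -0.49 over 3 plates rescaled) and Cacng5 (-0.16 and -1.10 by plate, -0.46 over 3 plates rescaled). For P7 MB over E15.5 MB they were Cacng2 (0.013 rescaled, 0.32 with 3 plates), Cacng5 (-0.67 on 1 plate), Cacna2d1 (0.064) and Scn2a (0.28), and for P7 FB over E15.5 FB Cacna2d2 (0.22), Cacng2 (0.33), Cacng4 (0.20) and Scn2a (0.45), all with 3 plates rescaled except the values stated. Cacna1g in P7.MB.2 over P7.MB.1 was -1.38 without its highest cell. P7.MB.3 on 1 exchanged plate (1 cell) and P7.OB.3 and P7.OB.1 over P7.OB.2 in cells with at least 4000 genes (no such P7.OB.2 cell) gave no value. No paired analysis was possible because each group is 1 pool and cells carry no shared replicate numbers. The unknown depth limits what a gene listed at 0 shows.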
